A study of Arabidopsis thaliana with 16 samples.

Results

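MIR822, MIR829 and MIR839 are 3 microRNA (miRNA) genes of Arabidopsis thaliana, described here in immunoprecipitates of the small RNA carriers AGO9 and AGO5. They are 3 of the 65386 features of the deposited table, of which 325 are annotated miRNA genes. They were taken by locus: AT5G03552 for MIR822, AT1G32713 for MIR829 and AT1G67481 for MIR839. The loci were picked as AGO9-associated. MIR829 was chosen by its level in the AGO9 immunoprecipitate (IP) of these libraries against input at day 7, and MIR839 by its level there against the AGO5 IP at day 35. All values of the AGO9 IP are therefore given as a description, without a test. MIR829 and MIR839 had reads and passed the filter of a mean of at least 1 RPM (reads per 1000000 read assignments of a library), as did 17020 features in all. MIR822 was listed at 0 in all 16 libraries, so the name AGO9-associated could be set against values for 2 of the 3 loci. MIR839 was high in the AGO9 IP at day 35 alone, and MIR829 was high in the AGO9 IP at both ages and also in the AGO5 IP at day 35.

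Small RNA was sequenced from IPs of GFP-tagged Argonaute proteins and from input RNA, with 2 libraries in each of 8 groups. All plants were in the Col-0 background. The AGO9 IP came from plants with pAGO5::GFP-AGO9, so the tagged AGO9 was driven by the AGO5 promoter and not by its own. The AGO5 IP came from pAGO5::GFP-AGO5 plants and the GFP-only IP, the background of the pull-down, from p35S::GFP plants. Input replicate 1 came from the AGO5 line and input replicate 2 from the AGO9 line at both ages. Day 35 material was the inflorescence meristem with floral meristems and young buds, and day 7 material the shoot apex, so age and tissue change together. The labels do not say whether replicates were separate plants, so p-values measure only the spread between these libraries, which in the IPs may be technical. In the inputs the spread also holds any difference between the AGO5 and AGO9 lines, since line and replicate change together there. Small RNA reads do not measure marker transcripts, and the labelled tissues were not checked against markers. Libraries held 3578524 to 99594348 read assignments, with the GFP-only IP of day 35 at the low end. RPM is relative to each library, and in bulk tissue fewer cells of a type and less RNA per cell cannot be told apart.

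Plant miRNAs are cut from a hairpin precursor by a Dicer-like enzyme and loaded into an Argonaute, which they guide to matching transcripts. AGO9 belongs to the AGO4 clade, whose members mostly carry 24 nt small interfering RNAs that begin with A, and it is known for its part in germ cell formation in the ovule. AGO5 tends to carry small RNAs that begin with C. MIR822 and MIR839 are young miRNA genes with long hairpins that are cut by DCL4, where most miRNA precursors need DCL1. miR822 targets transcripts of proteins with a C1 (cysteine- and histidine-rich) domain. MIR829 is unusual in giving mature RNAs of both 21 and 24 nt.

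The annotated mature sequences are shown because their length and first base differ within MIR829, and because their place decides what the table could count. Capitals mark the seed, bases 2 to 8. Coordinates and sequences are those of the RefSeq annotation and genome TAIR10.1, all on the minus strand and written 5′ to 3′.
miR829-3p.1: aGCUCUGAuaccaaaugauggaau
miR829-3p.2: cAAAUUAAagcuucaagguag
miR829-5p: aCUUUGAAgcuuugauuugaa
miR839-5p: uACCAACCuuucaucguuccc
miR822-5p: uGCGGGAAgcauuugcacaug
miR822-3p: uGUGCAAAugcuuucuacagg
The 6 seeds all differed, and each mature sequence matched the genome at 1 place. miR829-3p.1 (chr1:11834094-11834117) is 24 nt long and begins with A. miR829-3p.2 (chr1:11834073-11834093) is 21 nt long and begins with C. It starts at the base after the end of miR829-3p.1, at positions 134 to 154 of the precursor against 110 to 133. miR829-5p (chr1:11834153-11834173) is 21 nt long and begins with A. miR839-5p (chr1:25279138-25279158), miR822-5p (chr5:897287-897307) and miR822-3p (chr5:897067-897087) are each 21 nt long and begin with U. The table gives reads per locus and size and does not say which mature RNA a read is.

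The MIR829 precursor (chr1:11834022-11834226, 205 nt, minus strand) is shown with its 3 annotated mature sequences in capitals, so that the adjoining 24 and 21 nt RNAs of the 3′ arm can be seen.
MIR829: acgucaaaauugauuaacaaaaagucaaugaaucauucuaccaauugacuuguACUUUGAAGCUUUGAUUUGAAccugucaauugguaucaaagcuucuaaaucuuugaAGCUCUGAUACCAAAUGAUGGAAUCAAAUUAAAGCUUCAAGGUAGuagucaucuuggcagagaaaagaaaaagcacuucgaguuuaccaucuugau
In the minimum free energy fold computed from it (-77.3 kcal/mol), miR829-3p.2 paired with positions 53 to 72 and miR829-3p.1 with positions 73 to 96, with 20 bases paired in each. miR829-5p paired opposite miR829-3p.2, with positions 133 to 152. No other feature of the table overlaps MIR829.

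The MIR839 precursor (chr1:25278944-25279207, 264 nt, minus strand) is shown with the 114 bases that no other feature covers in capitals (chr1:25278944-25279057, positions 151 to 264).
MIR839: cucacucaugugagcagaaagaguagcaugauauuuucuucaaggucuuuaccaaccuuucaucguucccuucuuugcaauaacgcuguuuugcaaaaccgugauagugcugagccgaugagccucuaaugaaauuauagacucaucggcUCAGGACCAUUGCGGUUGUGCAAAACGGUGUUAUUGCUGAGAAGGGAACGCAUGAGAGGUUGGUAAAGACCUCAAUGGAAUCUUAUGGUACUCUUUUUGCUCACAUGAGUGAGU
The other 150 bases (chr1:25279058-25279207) are also part of AT1G08943, a non-coding RNA on the same strand, and hold all 21 bases of miR839-5p. In the fold of this long hairpin (-182.4 kcal/mol) all 21 bases of miR839-5p were paired, with positions 194 to 215, which lie in the unshared 3′ part.

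**Figure D1:**
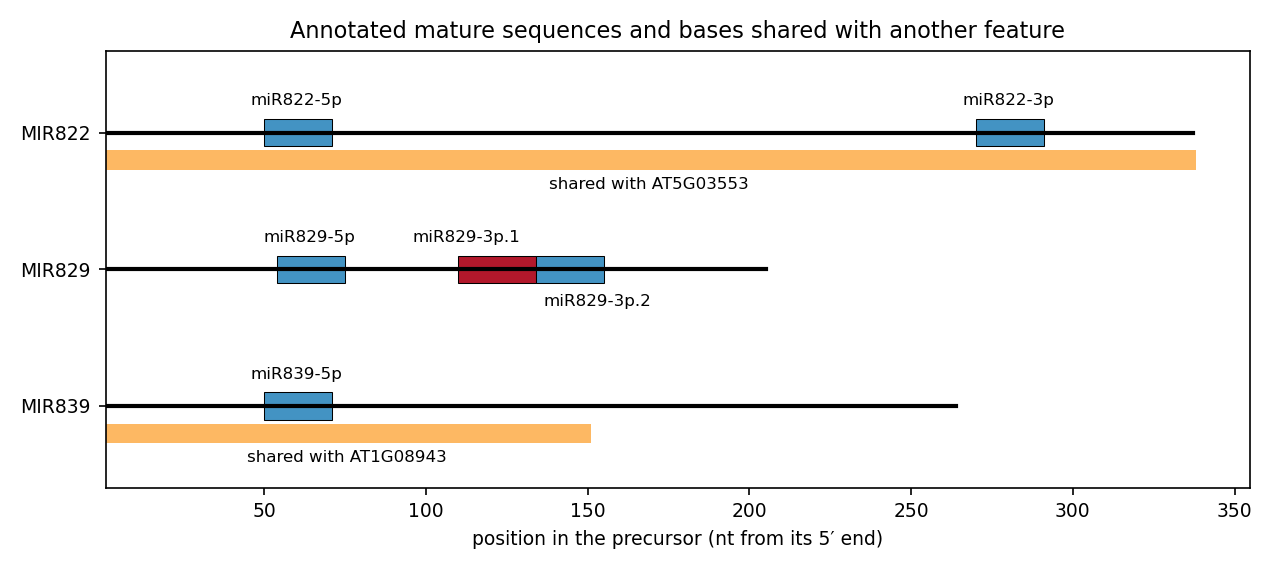
Position along each precursor, in nt from its 5′ end (black line), of the annotated mature sequences (blue 21 nt, red 24 nt) and of the bases shared with another feature (orange). All 337 nt of MIR822 and the first 150 nt of MIR839 are shared, while MIR829 shares none.

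Bases that belong to more than 1 feature gave no counts wherever that could be checked. Of the 6885 features of the table that other features cover whole, 6885 (100%) were listed at 0 in all 16 libraries. This held for cover on the same strand (2763 of 2763) and on the opposite strand (3741 of 3741). Of features covered in part 1636 of 15657 (10.4%) were at 0, and of features not covered 3662 of 42844 (8.55%). Among miRNA genes the counts were 123 of 123 covered whole, 7 of 42 covered in part and 2 of 160 not covered, so 132 of 325 (40.6%) were at 0.

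MIR822 (chr5:897020-897356, 337 nt, minus strand) is one of the 123. It lies whole inside AT5G03553, a protein-coding gene on the plus strand (chr5:896846-897746), and so do both of its mature sequences. Its 0 therefore gives no level of miR822 in any library. AT5G03553 itself, through its unshared bases, had between 0 and 1.96 RPM, with the highest value in GFP-only replicate 1 at day 7. If bases shared in part are treated alike, which was not tested, the MIR839 values below come from its 3′ 114 bases and leave out miR839-5p.

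**Figure D2:**
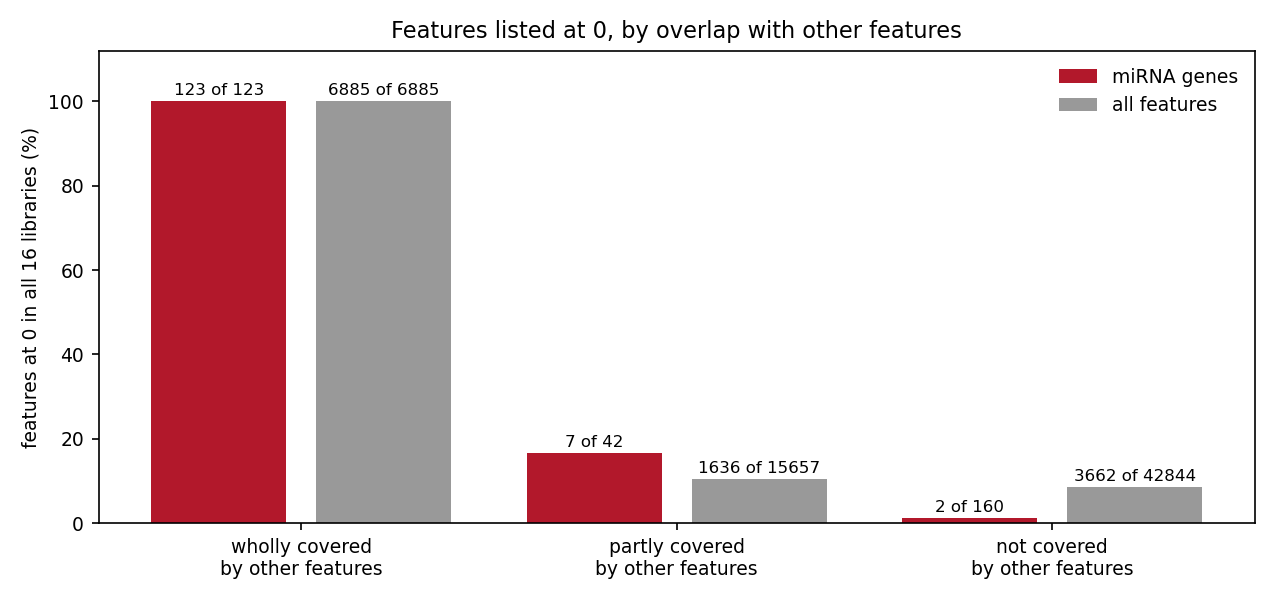
Percent of features listed at 0 in all 16 libraries (vertical axis, from 0), for miRNA genes (red) and all features (grey), by how far other features of the table cover them; counts stand above the bars. All features covered whole were at 0, against 8.55% of all features and 1.25% of miRNA genes that nothing covers.

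MIR829 stood higher in the libraries of both Argonautes than in input at day 35, and in those of AGO9 alone at day 7. At day 35 it had 91.2 and 27.6 RPM in the AGO9 IP, 133 and 40.0 in the AGO5 IP, 4.19 and 5.53 in the GFP-only IP and 12.98 and 17.2 in input. Both AGO9 libraries lay above both inputs and both GFP-only libraries, and they overlapped the AGO5 libraries. Of all tested features, 17.9% had both AGO9 libraries above both inputs at that age and 53.6% above both GFP-only libraries. At day 7 it had 29.3 and 18.6 RPM in the AGO9 IP, 1.34 and 1.03 in the AGO5 IP, 1.231 and 2.33 in the GFP-only IP and 1.81 and 2.208 in input. The AGO9 libraries stood above all 6 others of that age, which lay between 1.03 and 2.33 RPM. Such a place was common at day 7. Of all tested features, 67.7% had both AGO9 libraries above both inputs, 79% above both GFP-only libraries and 59.7% above both AGO5 libraries.

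By group mean the levels of MIR829 ran, from the highest, AGO5 IP at day 35 (86.4 ± 65.5 RPM, SD, n = 2), AGO9 IP at day 35 (59.4 ± 44.9), AGO9 IP at day 7 (23.97 ± 7.53), input at day 35 (15.1 ± 2.97), GFP-only IP at day 35 (4.86 ± 0.945), input at day 7 (2.01 ± 0.280), GFP-only IP at day 7 (1.78 ± 0.777) and AGO5 IP at day 7 (1.19 ± 0.221). Neighbours among the first 3 groups overlapped in their libraries, as did those among the last 3, and the other neighbours did not. The mean log2(RPM + 1) of the AGO9 IP minus that of input, the measure that at day 7 chose the locus, was 1.69 at day 35 and 3.02 at day 7. With 1 library left out it lay between 0.84 (without AGO9 replicate 1) and 2.53 at day 35 and between 2.71 and 3.33 at day 7. Among the 153 miRNA genes that passed the filter it ranked 5th at day 35 and 1st at day 7, where it was 3rd of all 17020 features.

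MIR839 was highest in the AGO9 IP of day 35. It had 179 and 438 RPM there, 5.67 and 1.221 in the AGO5 IP, 18.2 and 27.2 in the GFP-only IP and 12.7 and 24.3 in input at that age. Both AGO9 libraries lay above the other 6, the GFP-only libraries overlapped the inputs, and both AGO5 libraries lay below both inputs. The share of all features with both AGO5 libraries below both inputs was not counted. At day 7 the AGO9 IP had 0.305 and 0.0602 RPM (17 and 6 reads) and the AGO5 IP 0.918 RPM (28 reads) and 0, which allows up to 0.0407 RPM. The GFP-only IP had 0, which allows up to 0.217 RPM, and 1.42 RPM (33 reads), and input 0.259 and 0.138 RPM (4 and 2 reads). The day 7 groups all overlapped, and the highest library of that age was the GFP-only one at 1.42 RPM.

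The order of the MIR839 group means was AGO9 IP at day 35 (309 ± 184 RPM, SD, n = 2), GFP-only IP at day 35 (22.7 ± 6.36), input at day 35 (18.5 ± 8.22) and AGO5 IP at day 35 (3.45 ± 3.15), with the day 7 groups at 0.712 or less. Of these neighbours the first pair did not overlap, nor did the pair of input and AGO5 IP at day 35. The mean log2(RPM + 1) of the AGO9 IP minus that of input was 3.92 at day 35 (3.27 to 4.56 with 1 library left out) and -0.03 at day 7. The day 35 value was the highest of the 153 miRNA genes and the 103rd of the 17020 features. As background, of all tested features 17.9% had no overlap and more reads in the AGO9 IP than in input at day 35, and 67.7% at day 7. Against the GFP-only IP the shares were 53.6% and 79%, and against the AGO5 IP 42.1% and 59.7%. AT1G08943, which shares the 5′ part of MIR839, had means of 6.63 RPM in the AGO9 IP, 0.418 in the AGO5 IP, 5.59 in the GFP-only IP and 7.62 in input at day 35. Its reads in the AGO9 IP overlapped those of input in total but not in size. The 24 nt reads of AT1G08943 stood at 2.32 and 3.61 RPM in the AGO9 IP, 0.836 and 0 in the AGO5 IP, 0 and 0 in the GFP-only IP and 0.283 and 0.318 in input, and made up 39.1% and 49.2% of its 69 and 59 reads in the AGO9 IP, against 4.27% and 3.70% in input.

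**Figure D3:**
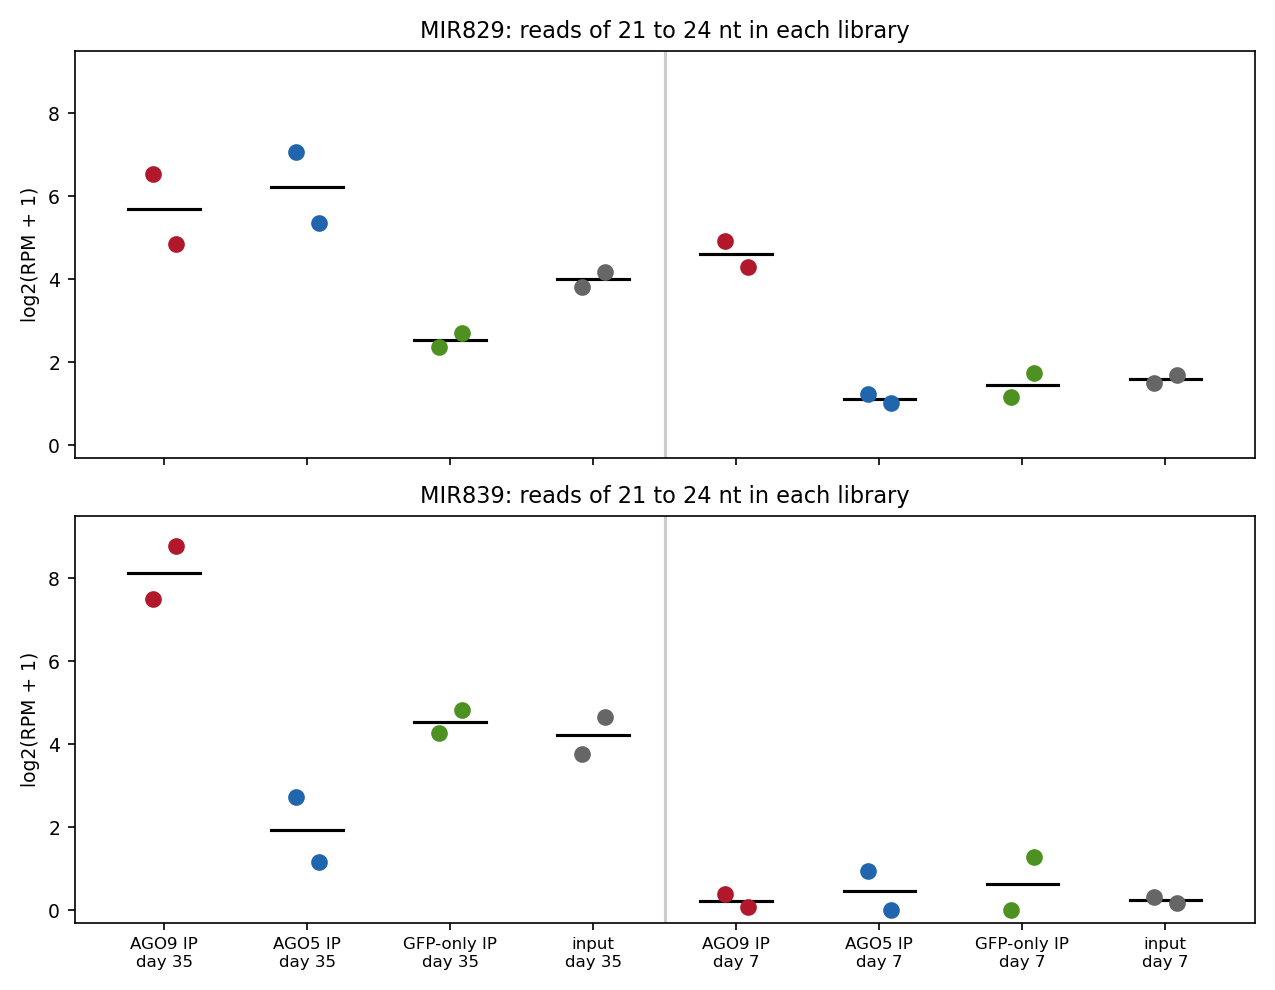
log2(RPM + 1) of 21 to 24 nt reads at MIR829 (top) and MIR839 (bottom) in each of the 16 libraries (points, replicate 1 left of replicate 2), with the mean of each group as a bar. MIR829 is high in the AGO9 IP at both ages and in the AGO5 IP at day 35 alone, and MIR839 is high in the AGO9 IP at day 35.

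The size of the reads at MIR829 separated the libraries of both Argonautes. Of the reads at the locus, 24 nt reads made up 96.3% (95% Wilson interval 95.02 to 97.3) and 68.9% (62.6 to 74.6) in the AGO9 IP at day 35. They made up 0.900% (0.583 to 1.39) and 2.18% (1.19 to 3.96) in the AGO5 IP and 67.5% (63.0 to 71.6) and 68.7% (65.6 to 71.6) in input. At day 7 the shares were 97.7% (96.8 to 98.3) and 96.8% (95.9 to 97.5) in the AGO9 IP, 12.2% (5.32 to 25.5) and 13.2% (7.31 to 22.6) in the AGO5 IP and 57.1% (39.1 to 73.5) and 46.9% (30.9 to 63.6) in input. AGO9 libraries lay above both inputs at day 7 and in replicate 1 at day 35, replicate 2 stood level with input, and AGO5 libraries lay below input at both ages. Intervals cover counting error only, and no test was made on shares, since 2 libraries against 2 cannot pass 0.05 in an exact permutation test.

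In RPM, the 24 nt reads of MIR829 stood at 87.8 and 19.0 in the AGO9 IP, 1.19 and 0.872 in the AGO5 IP and 8.75 and 11.8 in input at day 35. The 21 nt reads, the length of miR829-3p.2 and of miR829-5p, stood at 1.11 and 4.35 in the AGO9 IP, 129 and 39.2 in the AGO5 IP and 3.37 and 5.002 in input. The AGO5 libraries held more 21 nt reads than any other library, and fewer 24 nt reads than input. At day 7 the 24 nt reads stood at 28.6 and 18.0 RPM in the AGO9 IP, 0.164 and 0.136 in the AGO5 IP and 1.03 and 1.03 in input, and 21 nt reads stayed at or below 1.1797 RPM in all of these. As a description, the AGO9 IP minus input difference in log2(RPM + 1) was 1.92 at day 35 and 3.54 at day 7 for 24 nt reads, and -0.61 and -0.47 for 21 nt reads.

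**Figure D4:**
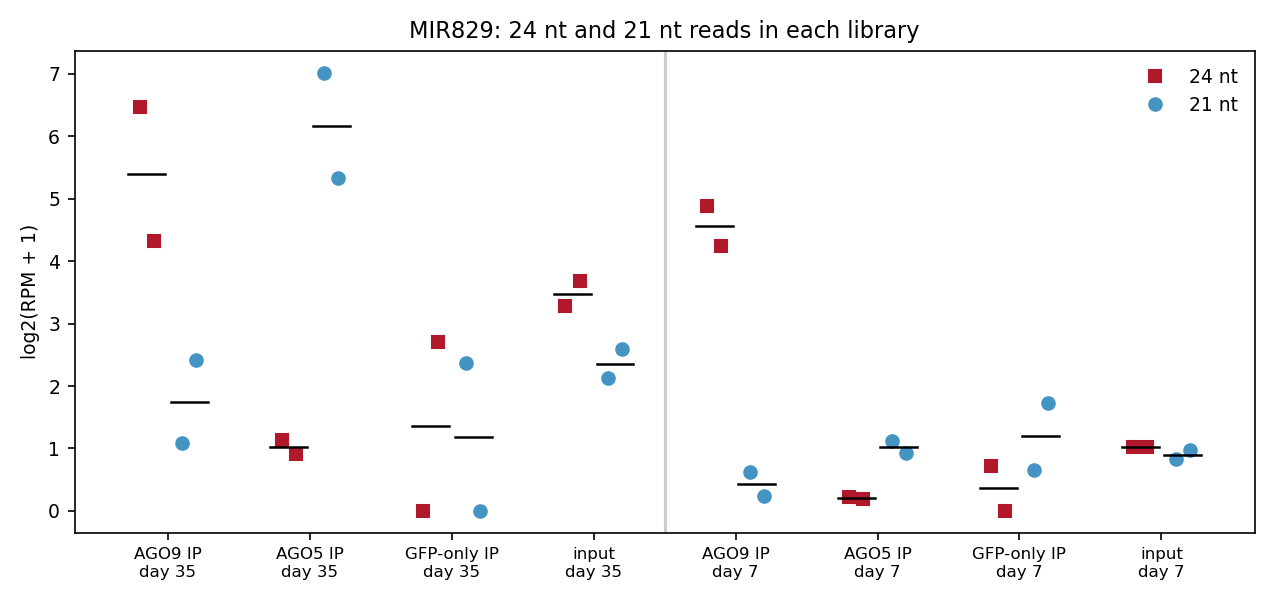
log2(RPM + 1) of 24 nt (red squares) and 21 nt (blue circles) reads at MIR829 in each library, with group means as bars. In the AGO9 IP the 24 nt reads stand above the 21 nt reads at both ages, and in the AGO5 IP at day 35 the order is the other way.

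The AGO5 IP was then set against input. This difference uses the AGO5 and input libraries, while all 16 libraries share the estimate of the spread. The day 7 inputs entered the difference by which MIR829 was chosen, so its tests that use them are not independent of the choice. The day 35 AGO5 and input libraries did not enter it. At day 35 MIR829 rose in the AGO5 IP by 2.216 ± 0.62 (SE) in log2(RPM + 1), with a limma adjusted p of 0.0206 over all features and both AGO5 libraries above both inputs. With only the libraries compared in the fit, the SE was 0.588 and the limma adjusted p 0.0403. At an adjusted p under 0.05, 28% of the 17020 features were called in this comparison and 3.84% were called as higher, with a median difference of -0.65 over all features. The share of all features with both AGO5 libraries above both inputs was not counted. By size, the 21 nt reads rose by 3.82 ± 0.84 (limma adjusted p = 0.0245) and the 24 nt reads fell by 2.46 on the same scale, with an SE of 0.80 (limma adjusted p = 0.0286). In these fits 1.61% of 6713 features were called in 21 nt reads and 36.8% of 14054 in 24 nt reads. The fits by size were added after seeing the data and were not repeated with libraries left out. The call on the summed reads was lost without AGO5 replicate 1 (1.36, limma adjusted p = 0.166) and without input replicate 1 or 2 (0.13 and 0.063), and also when libraries were centred on their medians (0.0789). With that centring the difference was 2.93 and its SE 0.846. With the deposited combined column, which is on another scale in AGO5 replicate 1, the difference was 0.26 (limma adjusted p = 0.802).

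At day 7 the MIR829 difference of the AGO5 IP from input was -0.46 (limma adjusted p = 0.652), in a comparison that called 18.2% of all features. The difference between the ages, taken as an interaction, was 2.68 ± 0.88 and missed the threshold (limma adjusted p = 0.208, 0.488% of features called). It missed the threshold in edgeR's quasi-likelihood test on recovered reads (3.56, adjusted p = 0.191) and passed it in DESeq2 (3.72 ± 0.906, adjusted p = 0.00364). The interaction uses the day 7 inputs, so these tests are not independent of the choice of MIR829. For MIR839 the AGO5 IP minus input difference was -2.27 at day 35 (-3.07 to -1.48 with 1 library left out), given without a test since that age's AGO5 libraries helped to choose it. At day 7 it was 0.21 (limma adjusted p = 0.867).

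In the GFP-only IP, which measures what the pull-down retains without an Argonaute, neither locus passed the test on summed reads. At day 35 the difference from input was -1.45 for MIR829 (limma adjusted p = 0.0742) and 0.32 for MIR839 (0.711), where 45.6% of all features were called, nearly all as lower (44.5%). At day 7 it was -0.14 for MIR829 (limma adjusted p = 0.872) and 0.38 for MIR839 (0.666), with 26.2% of features called. The direction was not firm, since MIR829 had 0.58 and 0.98 with libraries centred on their medians and MIR839 had -0.12 at day 35 without input replicate 1. The GFP-only libraries of day 35 were the shallowest, and the reads of a locus there were of a single size in each. All 15 MIR829 reads of replicate 1 were 21 nt and all 23 of replicate 2 were 24 nt. All 65 MIR839 reads of replicate 1 were 22 nt and all 113 of replicate 2 were 24 nt.

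By size, at day 35, the 24 nt reads of MIR829 stood at 0 and 5.53 RPM in the GFP-only IP, against 8.75 and 11.8 in input, and fell by 2.13 in log2(RPM + 1) (limma adjusted p = 0.0333, with 64.6% of features called). The median difference over all features in that fit was -1.65, with 71 features called higher and 9005 lower. The 21 nt reads of MIR839, at 0 in both GFP-only libraries against 7.00 and 11.6 RPM in input, fell by 3.33 (limma adjusted p = 0.0314, with 0.849% of features called). The summed reads of MIR839 overlapped those of input, and each GFP-only library held MIR839 reads of a single size, neither of them 21 nt. The 21 nt reads of MIR829 (-1.17, limma adjusted p = 0.477) and the 24 nt reads of MIR839 (-0.42, limma adjusted p = 0.73) were not called. These fits by size were also added after seeing the data.

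Both loci rose with age in input. MIR829 had 12.98 and 17.2 RPM at day 35 against 1.81 and 2.208 at day 7, a difference of 2.41 ± 0.62 in log2(RPM + 1) (limma adjusted p = 0.0251). MIR839 had 12.7 and 24.3 RPM at day 35 against 0.259 and 0.138 at day 7, a difference of 3.96 ± 0.67 (limma adjusted p = 0.00277). The inputs of the ages did not overlap at either locus, and 16.6% of all features were called, 11.2% as higher and 5.44% as lower. The MIR829 test uses the day 7 inputs by which that locus was chosen. The inputs did not enter the choice of MIR839, but it was chosen by its level at day 35. Its rise with age may therefore not be independent of that choice. The MIR829 call was lost without any 1 of the 4 inputs (limma adjusted p between 0.0771 and 0.175) and with libraries centred on their medians (0.279), and both were lost in edgeR's quasi-likelihood test on recovered reads (adjusted p = 0.0588 and 0.093). The other 151 tested miRNA genes had a median difference of 0.31 between the ages, with 16 higher and 8 lower, beside a median of 0.48 over all features.

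The reads of MIR839 also differed in size between the AGO9 IP and input. At day 35, 24 nt reads made up 94.7% (95% Wilson interval 93.6 to 95.6) and 93.5% (92.6 to 94.3) of its reads in the AGO9 IP, against 33.3% (29.1 to 37.7) and 35.7% (33.1 to 38.3) in input. In the AGO5 IP they were 7.37% of 95 reads (3.61 to 14.4) and 0 of 14. The 21 nt reads made up 55.1% and 47.7% of MIR839 reads in the inputs. In RPM, the AGO9 IP had 169 and 410 of 24 nt and 3.43 and 10.8 of 21 nt, against 4.22 and 8.67 of 24 nt and 7.00 and 11.6 of 21 nt in input. The AGO9 libraries were above input in 24 nt reads and overlapped it in 21 nt reads. The difference of the AGO9 IP from input in log2(RPM + 1) was 5.22 for 24 nt and -0.47 for 21 nt reads, as a description.

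**Figure D5:**
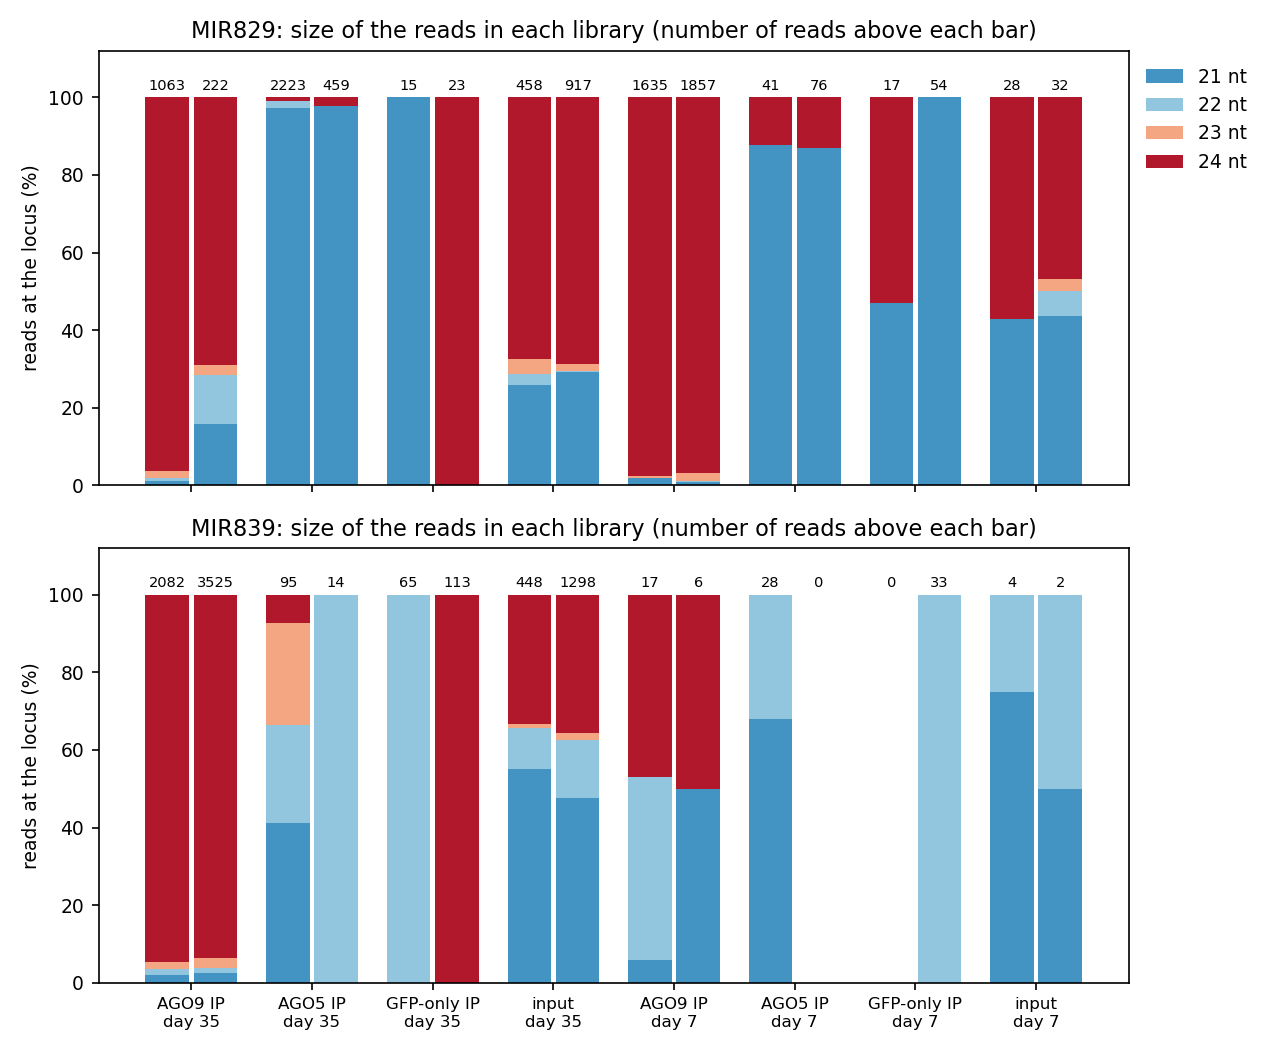
Percent of reads of 21, 22, 23 and 24 nt at MIR829 (top) and MIR839 (bottom) in each library, with the number of reads above each bar; a library with 0 reads has no bar. AGO9 libraries are mostly 24 nt at MIR829 at both ages and at MIR839 at day 35, while AGO5 libraries are mostly 21 nt at MIR829.

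The libraries differed in read size as a whole, and these values stand beside the shares above. Over all features at day 35, the share of 24 nt reads was 89.6% and 66.8% in AGO9 libraries, 34.4% and 30.001% in AGO5 libraries and 48.8% and 56.2% in inputs. At day 7 it was 76.4% and 89.8% in AGO9 libraries, 42.7% and 52.7% in AGO5 libraries and 35.7% and 37.1% in inputs. The loci were therefore also scaled to the 24 nt reads of each library alone. On that scale the AGO9 IP minus input difference in log2 was 1.41 at day 35 and 2.89 at day 7 for MIR829, and 4.76 at day 35 for MIR839. MIR829's 24 nt share in AGO9 replicate 2 at day 35 was close to that library's own, 68.9% against 66.8%.

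Other miRNA genes kept a low share of 24 nt reads in the same libraries. Over those with at least 20 reads, the median share was 3.94% and 0.672% in the AGO9 IP at day 35 and 0.0409% and 0.390% at day 7, against 0.260% and 0.338% in input at day 35 and 0.129% and 0.0948% at day 7. In AGO9 replicate 1 at day 35, 4 of these 72 genes exceeded MIR829's share and 4 exceeded MIR839's. In replicate 2, 5 of 73 exceeded MIR829's share and 0 exceeded MIR839's. In the AGO9 IP at day 7, 2 of 126 genes exceeded MIR829's share in replicate 1 and 7 of 111 in replicate 2. Of all 24 nt reads at the tested miRNA genes, MIR839 took 20.8% and 59.4% in the AGO9 IP at day 35, against 0.693% and 1.30% in input. MIR829 took 10.8% and 2.76% in the AGO9 IP at day 35, against 1.44% and 1.77% in input, and 8.35% and 10.06% in the AGO9 IP at day 7, against 0.412% and 0.387% in input. The 2 loci made up a larger part of the 24 nt miRNA reads of the AGO9 IP than of input, in each library at the ages named. This is a description, since the AGO9 IP of day 7 chose MIR829 and that of day 35 chose MIR839. All miRNA genes with counts together took 0.222% and 0.564% of the reads in the AGO9 IP at day 35, against 3.18% and 5.37% in input. At day 7 they took 7.19% and 0.505%, against 4.73% and 4.97%. These shares leave out the 123 miRNA genes that other features cover whole, MIR822 among them.

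As a group the other 151 tested miRNA genes stood mostly below input in the AGO9 IP. At day 35, 6 of them had more reads in both AGO9 libraries than in both inputs and 125 had fewer, with a median log2 difference of -2.93, beside -0.30 over all features. Of all features 17.9% had more at that age and 47% had fewer. At day 7, 11 were higher and 77 lower (67.7% and 19.4% of all features), with a median of -1.63 beside 0.65. In the AGO5 IP against input, by limma, 12 rose and 22 fell at day 35 (median -0.28, beside -0.65 over all features), where 3.84% and 24.2% of all features did. At day 7, 0 rose and 17 fell (-1.30, beside -0.30), where 7.73% and 10.4% of all features did. In the GFP-only IP 8 rose and 21 fell at day 35 (0.48, beside -1.27), where 1.1% and 44.5% of all features did, and 3 rose and 9 fell at day 7 (0.35, beside -1.03), where 0.182% and 26% did. MIR869 (AT5G39693), a further gene whose long hairpin is cut by DCL4, stood below input in both AGO9 libraries of day 35. At that age it had 0.515 and 0.249 RPM in the AGO9 IP, 2.63 and 1.66 in the AGO5 IP, 17.6 and 7.21 in the GFP-only IP and 7.25 and 6.58 in input.

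The features whose profile was most like that of each locus were sought by the Pearson correlation of log2(RPM + 1) over the 16 libraries, which share depth and library make-up. Of 99 miRNA genes with a mean of at least 10 RPM, MIR831 (0.721), MIR5643a (0.655) and MIR5028 (0.567) came nearest to MIR829. MIR831 had 15.7 RPM in the AGO9 IP, 77.7 in the AGO5 IP and 3.95 in input at day 35 (group means), while MIR5028 had 0.588, 196 and 1.72. Both were high in the AGO5 IP of that age and neither in the AGO9 IP at day 7, where they had 0.0985 and 0.0537 RPM. Among 7324 features of any kind the nearest to MIR829 were the transposable elements AT1TE55830 (0.891), AT5TE62050 (0.890) and AT4TE11785 (0.876). By group means none of them was among the nearest 3.

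Nearest to MIR839 were MIR4240 (0.949), MIR1887 (0.817) and MIR867 (0.659) among miRNA genes. MIR4240, on chromosome 4, was also the nearest of all 7324 features, with 77.5 RPM in the AGO9 IP, 0.617 in the AGO5 IP, 2.498 in the GFP-only IP and 6.96 in input at day 35 and 0 in all day 7 groups. MIR1887 had 150 RPM in the AGO9 IP, 2.01 in the AGO5 IP, 9.08 in the GFP-only IP and 57.8 in input at day 35, and 0 at day 7. The transposable elements AT2TE06875 (0.949) and AT5TE49375 (0.934) followed, with 284 and 215 RPM in the AGO9 IP and 38.9 and 24.9 in input at day 35. All 3 of MIR839's nearest miRNA genes were again nearest by group means, and MIR4240 and MIR867 by Spearman's rank correlation.

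Other features lay within 1 kb of the loci without sharing bases with them. AT1TE38345, a transposable element 423 nt from MIR829, had group means of 26.9 RPM in the AGO9 IP, 5.08 in the AGO5 IP and 32.5 in input at day 35. At day 7 it had 20.7 RPM in the AGO9 IP, 4.78 in the AGO5 IP and 19.6 in input. Its AGO9 and input means lay closer together than those of MIR829. The AGO9 mean of day 35 hides a spread, since replicate 1 had 39.4 RPM, the highest of any library. AT1G32720, 675 nt away, had 12.7 RPM in the AGO9 IP and 10.15 in input at day 35. AT1G67480, 163 nt from MIR839, had at most 2.69 RPM in any library.

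The C1 domain genes, the family of the known miR822 targets, were counted because small RNAs can also arise from targeted transcripts. Beside each count of these genes stands the share of all features. Of 21 tested genes 0 rose and 3 fell in the AGO5 IP against input at day 35 (3.84% and 24.2% of all features; median log2 difference 0.56, beside -0.65 over all features). At day 7, 0 rose and 1 fell (7.73% and 10.4%; 0.12, beside -0.30). In the GFP-only IP 0 rose and 12 fell at day 35 (1.1% and 44.5%; -1.82, beside -1.27), and 0 rose and 3 fell at day 7 (0.182% and 26%; -0.33, beside -1.03). With age 2 rose and 0 fell in input (11.2% and 5.44%; 0.32, beside 0.48). At day 35, 7 had more reads in both AGO9 libraries than in both inputs and 7 had fewer (17.9% and 47%; 0.13, beside -0.30), and at day 7, 14 had more and 3 fewer (67.7% and 19.4%; 0.94, beside 0.65). The 3 with the highest mean were AT2G13900, AT5G02350 and AT5G02330, with 246, 245 and 245 RPM. Their values were nearly the same throughout and highest in GFP-only replicate 1 at day 7, so reads may be shared between these copies and each value is uncertain.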

How the data were processed

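The authors deposited RPM values at 65386 features in 16 libraries, in a column each for 21, 22, 23 and 24 nt reads, and the 4 sizes were summed here. The submitters' processing notes name cutadapt 1.18, Bowtie2 2.3.5.1, featureCounts, Subread 2.0.1 and build TAIR10; counting options are not given in the sources used here. The deposited combined column of AGO5 IP replicate 1 at day 35 was treated as a score, since it sums to 59698.5 where its size columns sum to 1e+06, and was used only as an alternative. Within 0.01 of a step, 100% of values were multiples of what 1 read is worth, so whole reads were recovered: 3578524 to 99594348 read assignments per library. A floor of 3 reads was 0.0301 to 0.838 RPM. Whether molecular identifiers were used is not stated, so 95% Wilson intervals and floors cover counting error only. Replicates differed by more than sampling noise (chi-square per degree of freedom 4.75 to 425).

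Groups came from the sample titles. The replicate number names the plant line in the inputs, the same at both ages, and is only a number in the IPs. limma 3.58.1 (R 4.3.3) was fitted to log2(RPM + 1) for 8 groups over the 17020 features that averaged 1 RPM or more, with trended empirical Bayes and Benjamini-Hochberg adjustment at 0.05. The scale understates the change of low features. The fit was tried on simulated data, with the same spread set for every feature and changes larger than those tested by limma at these loci. That trial does not give the error rate in these data. edgeR 4.0.16 and DESeq2 1.42.0 on recovered reads, other scalings, pseudocounts and filters, left-out libraries and a replicate block were alternatives. Of 33900 nuclear genes 33899 had the coordinates of TAIR10.1. Hairpins were folded with RNAfold (ViennaRNA 2.7.2).

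Named were the 3 loci, for each the 3 miRNA genes and 3 features of any kind most correlated with it, overlapping or adjoining features, MIR869 and up to 3 C1 domain genes; other miRNA genes were counted. Members and lists were chosen with earlier results of these data known.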

Additional observations from a re-analysis of the deposited data

How the results depend on the processing

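Of 203 log2 differences of MIR829 and MIR839 recomputed without leaving out a single library, 169 kept their direction and side of the threshold or moved by less than the replicate SD. The cause of the changes was not tested. With libraries centred on their medians, MIR829 had AGO5 IP minus input 2.93 at day 35 (limma adjusted p = 0.0789), GFP-only IP minus input 0.58 at day 35 and 0.98 at day 7, input by age 1.92 (adjusted p = 0.279) and AGO9 IP minus input 2.48 at day 7, where MIR839 had -0.56. That centring left GFP-only replicate 2 of day 35 unshifted, since 9113 of the 17020 features were at 0 there. Under it the SE at MIR829 was 0.846, against 0.624 in the reported fit. The day 7 GFP-only difference of MIR829 was also above 0 after quantile normalization (0.99), in edgeR (1.11) and in DESeq2 (1.2). In edgeR, input by age was 2.32 for MIR829 (adjusted p = 0.0588) and 5.9 for MIR839 (adjusted p = 0.093); the day 7 AGO9 difference of MIR839 was -0.95, and -0.77 in DESeq2. A pseudocount of 0.25 gave MIR829 3.39 in the AGO9 IP at day 7. With the combined column, AGO5 IP minus input at day 35 was 0.26 for MIR829 (adjusted p = 0.802) and -3.43 for MIR839, and MIR829 by age 2.41 (adjusted p = 0.134).

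Size columns alone were chosen after seeing the data, as was leaving out features that share bases, which changed no MIR829 call. In 21 nt reads MIR829 had 0.12 in the AGO5 IP and 0.3 in the GFP-only IP at day 7, 1.45 by age (limma adjusted p = 0.532) and -0.61 and -0.47 in the AGO9 IP at days 35 and 7; MIR839 had -3.33 and -0.18 in the GFP-only IP and -0.47 in the AGO9 IP at day 35. In 24 nt reads MIR829 had -2.46 in the AGO5 IP and -2.13 in the GFP-only IP at day 35, 2.46 by age (adjusted p = 0.0866), 3.54 in the AGO9 IP at day 7 and -1.64 for the AGO5 interaction; MIR839 had -0.42 in the GFP-only IP, 2.83 by age (adjusted p = 0.14) and 5.22 in the AGO9 IP at day 35. Scaled to 24 nt reads MIR839 had 4.76 and 0.15 in the AGO9 IP at days 35 and 7.

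The AGO5 interaction of MIR829 passed the threshold in DESeq2 (3.72, adjusted p = 0.00364), but it uses the day 7 inputs by which that locus was chosen. Leaving out 1 library gave MIR829 1.36 to 3.07 in the AGO5 IP at day 35, 2.2 to 2.6 by age and -0.43 to 0.15 in the GFP-only IP at day 7, and MIR839 -0.12 to 0.76 in the GFP-only IP at day 35, -0.26 to 0.68 in the AGO5 IP and -0.26 to 1.02 in the GFP-only IP at day 7. MIR839 by age was 3.52 to 4.4 with the call kept. As values without a test, AGO9 IP minus input was 0.84 to 2.53 at day 35 and 2.71 to 3.33 at day 7 for MIR829 and 3.27 to 4.56 at day 35 for MIR839, whose AGO5 IP minus input was -3.07 to -1.48 at day 35. Where 1 library was left in a group it was taken to vary like the others.

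Replicate numbers name the plant line in the inputs at both ages and are only numbers in the IPs; correlations of deviations were 0.067 between the inputs and 0.0352 to 0.0941 in all. With them as a block, AGO5 IP minus input of MIR829 at day 35 was 2.2 (adjusted p = 0.0215), input by age was 2.41 for MIR829 (0.025) and 3.96 for MIR839 (0.00463), and the block changed no call. Features called ranged from 108 to 7404 in the AGO5 IP against input at day 35 (4772 as reported), 1 to 7928 at day 7 (3091), 57 to 9830 in the GFP-only IP at day 35 (7763), 0 in edgeR to 9370 at day 7 (4454), 72 to 10049 between inputs (2827) and 1 to 816 for the AGO5 interaction (83). At day 7 in the GFP-only IP edgeR's 0 stands beside 2045 features at an unadjusted p under 0.05 and 875 called by DESeq2; edgeR called 2964 in the AGO5 IP at day 35 and 960 between inputs. The split also moved with scaling: higher and lower calls were 653 and 4119 in the AGO5 IP at day 35 (2156 and 2200 after quantile normalization), 1316 and 1775 at day 7 (2124 and 1567), 188 and 7575 in the GFP-only IP at day 35 (746 and 1162), 31 and 4423 at day 7 (156 and 133) and 1901 and 926 between inputs (1330 and 1465). MIR839 at day 7 rests on 0 to 33 reads in a library.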
